A study of Mus musculus with 27 samples.

Results

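Cell cycle exit in the heart was followed here through 10 genes: the CDK inhibitors Cdkn1a, Cdkn1b, Cdkn2c and Cdkn2d, the pocket protein genes Rb1, Rbl1 and Rbl2, the cyclin genes Ccnd1 and Ccnd2, and the homeobox gene Meis1. They were taken by symbol from a table of 51826 mouse genes, each member matched 1 Ensembl identifier, and all 10 were among the 19119 genes with enough reads to be tested. The fewest reads that any member had in any library was 180. Whole hearts of CD-1 mice had been sequenced at postnatal day 14, in 27 libraries, after block of thyroid hormone synthesis, of adrenergic receptors, or of both.

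The 9 groups held 3 hearts each. Propylthiouracil (PTU), which stops the thyroid from making hormone, was fed to the mothers at 0.15% in iodine-deficient chow from E13.5 (embryonic days) and kept on. Phenoxybenzamine (PHE, 10 ug per g per day), an alpha-adrenergic blocker, and propranolol (PRO, 20 ug per g per day), a beta-adrenergic blocker, were injected under the skin of the pups every day from postnatal day 1 to day 14. The labels place the libraries in 2 sequencing sets. Set A holds PTU+PHE+PRO, PTU+PHE, PHE+PRO, PHE and a saline group. Set B holds PTU+PRO, PTU, PRO and a saline group of its own. All PHE groups are in set A, while PTU without PHE and PRO without PHE are in set B. Any statement about PHE across the sets therefore rests on groups from both. No hormone level accompanies the libraries, and PTU went through the mothers, so that litter and PTU cannot be told apart.

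Most heart muscle cells of the mouse stop dividing in the first weeks after birth. D cyclins activate CDK4 and CDK6, which phosphorylate the pocket proteins and thereby release E2F factors that switch on the genes of DNA replication. The CIP/KIP inhibitors, p21 (Cdkn1a) and p27 (Cdkn1b), bind cyclin-CDK complexes, and the INK4 inhibitors, p18 (Cdkn2c) and p19 (Cdkn2d), bind CDK4 and CDK6 themselves. Meis1 is known in mice as a factor that promotes the exit of cardiomyocytes from the cell cycle and activates CDK inhibitor genes, p21 among them.

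Promoter sequence is shown for Cdkn1a and Rbl1 because p53 and E2F factors, which are known to regulate them, bind short motifs that can be searched for. The windows run from 250 bases before to 50 bases after an annotated transcript start and come from RefSeq on GRCm38.p6. Windows were found for 7 of the members, 9 windows in all. Capitals mark the E2F match in the Rbl1 window (chr2:157204485-157204784, minus strand) and 2 matches to the p53 decamer, the repeat unit of a p53 response element, in the first Cdkn1a window (chr17:29090729-29091028, plus strand). A second Cdkn1a window, at a transcript start further downstream (chr17:29093519-29093818, plus strand), held no match to any motif searched.
Rbl1: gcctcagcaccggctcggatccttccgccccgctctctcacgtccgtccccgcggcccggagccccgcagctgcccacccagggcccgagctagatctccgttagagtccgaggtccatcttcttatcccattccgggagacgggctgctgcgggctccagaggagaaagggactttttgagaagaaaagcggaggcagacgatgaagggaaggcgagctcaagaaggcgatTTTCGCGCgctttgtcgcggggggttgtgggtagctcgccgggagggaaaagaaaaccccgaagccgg
Cdkn1a window 1: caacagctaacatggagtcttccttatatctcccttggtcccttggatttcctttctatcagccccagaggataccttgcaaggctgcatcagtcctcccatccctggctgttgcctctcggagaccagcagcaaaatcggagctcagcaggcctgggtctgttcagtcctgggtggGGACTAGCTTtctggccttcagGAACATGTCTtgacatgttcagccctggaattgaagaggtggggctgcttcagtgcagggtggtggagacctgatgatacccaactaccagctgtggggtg
Cdkn1a window 2: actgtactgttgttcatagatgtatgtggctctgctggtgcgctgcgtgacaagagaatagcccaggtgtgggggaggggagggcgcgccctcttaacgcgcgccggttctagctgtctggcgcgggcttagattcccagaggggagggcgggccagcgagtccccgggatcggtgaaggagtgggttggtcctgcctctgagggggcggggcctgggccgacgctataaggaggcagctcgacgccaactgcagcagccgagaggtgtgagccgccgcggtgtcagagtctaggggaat
The E2F search took the 4 spellings TTTCCCGC, TTTCGCGC, TTTGCCGC and TTTGGCGC on both strands. Its match in Rbl1 lay at positions -18 to -11 from the start, and 2.26% of 32851 promoter windows of this length in the table held 1 or more such matches. The p53 decamer matches in Cdkn1a lay at positions -73 to -64 and -51 to -42 from the start. A match to that decamer was found in 8.36% of all windows and, among the members, also in Cdkn2d. The search for it was added after the Cdkn1a sequence had been read. The thyroid hormone receptor core AGGTCA (16.3% of windows) matched once, on the reverse strand, in the first Cdkn2c window, and the cell cycle homology element TTTGAA (17.9% of windows) matched on the reverse strand in Rbl2. No match to the motifs searched lay in the windows of Cdkn1b, Meis1 or the second window of Cdkn2c. Promoters of Rb1, Ccnd1 and Ccnd2 were not analysed here.

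Libraries held 30791885 to 78913915 reads assigned to genes, of which mitochondrial genes took 12% to 19.7%. Levels are given as counts per 1e+06 reads after TMM scaling (CPM), differences as log2 ratios with their standard error (SE), and a gene is called where edgeR's quasi-likelihood test gave an adjusted p (Benjamini-Hochberg, over all 19119 genes) under 0.05. The header gives 2 columns of PHE+PRO the same name, with heart number 2, here hearts 2a and 2b. Myh6, the adult heart myosin gene that is known to need thyroid hormone, served to check the labels. It averaged 1857 CPM in PTU+PHE+PRO, 2145 in PTU+PHE, 36833 in PHE+PRO and 32313 in PHE, against 34482 CPM in set A saline hearts. In set B it averaged 2312 CPM in PTU+PRO, 2774 in PTU and 32435 in PRO, against 29009 CPM in saline. Libraries of the 4 PHE-containing groups also differed from saline in a trend with transcript length, and the PTU groups of set B differed in the opposite direction. The trend of a library was the median log2 deviation of genes with over 8000 exon bases minus that of genes with under 1000. Its mean over the hearts of a group was -0.41 in PTU+PHE+PRO, -0.50 in PTU+PHE, -0.19 in PHE+PRO and -0.46 in PHE, against 0.11 in set A saline hearts. In set B it was 0.44 in PTU+PRO, 0.45 in PTU and 0.21 in PRO, against 0.21 in saline. Single hearts had 0.388 to 0.484 in PTU+PRO and 0.425 to 0.489 in PTU, above the 0.105 to 0.289 of set B saline. All 3 PHE hearts were male by Xist and Y-linked genes, and each other group held both sexes. The part of the length trend in the results was not tested beyond a refit with a length offset.

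Against the saline group of the same set, most changes in the 10 genes came in groups with PTU. In PTU+PHE+PRO hearts 7 members were called, in a comparison that called 54.7% of all genes tested: 5 were higher (28.7% of all genes) and 2 lower (26%). In PTU+PHE hearts 6 were called (53.4% of all genes), 5 higher (28.2%) and 1 lower (25.2%). In PTU+PRO hearts 5 were called (35.9%), all higher (17.7%, with 18.1% of all genes lower). In PTU hearts 3 were called (29.4%), all higher (14.3%, with 15.1% of all genes lower). Without PTU, PHE+PRO hearts had 2 calls (5.59%), 1 higher (2.51%) and 1 lower (3.09%). PHE hearts had 3 calls (14.8%), 2 higher (8.14%) and 1 lower (6.64%). PRO hearts had 0, where edgeR called 0.272% of all genes and 1594 genes had an unadjusted p under 0.05. In the PTU groups these counts stand near the share of genes called at large. The median log2 difference of the members was 0.51 in PTU+PHE+PRO, 0.29 in PTU+PHE, 0.42 in PTU+PRO and 0.30 in PTU, where the median over all genes tested lay within 0.04 of 0. In bulk hearts, fewer cells of a type and less RNA per cell cannot be told apart.

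**Figure D1:**
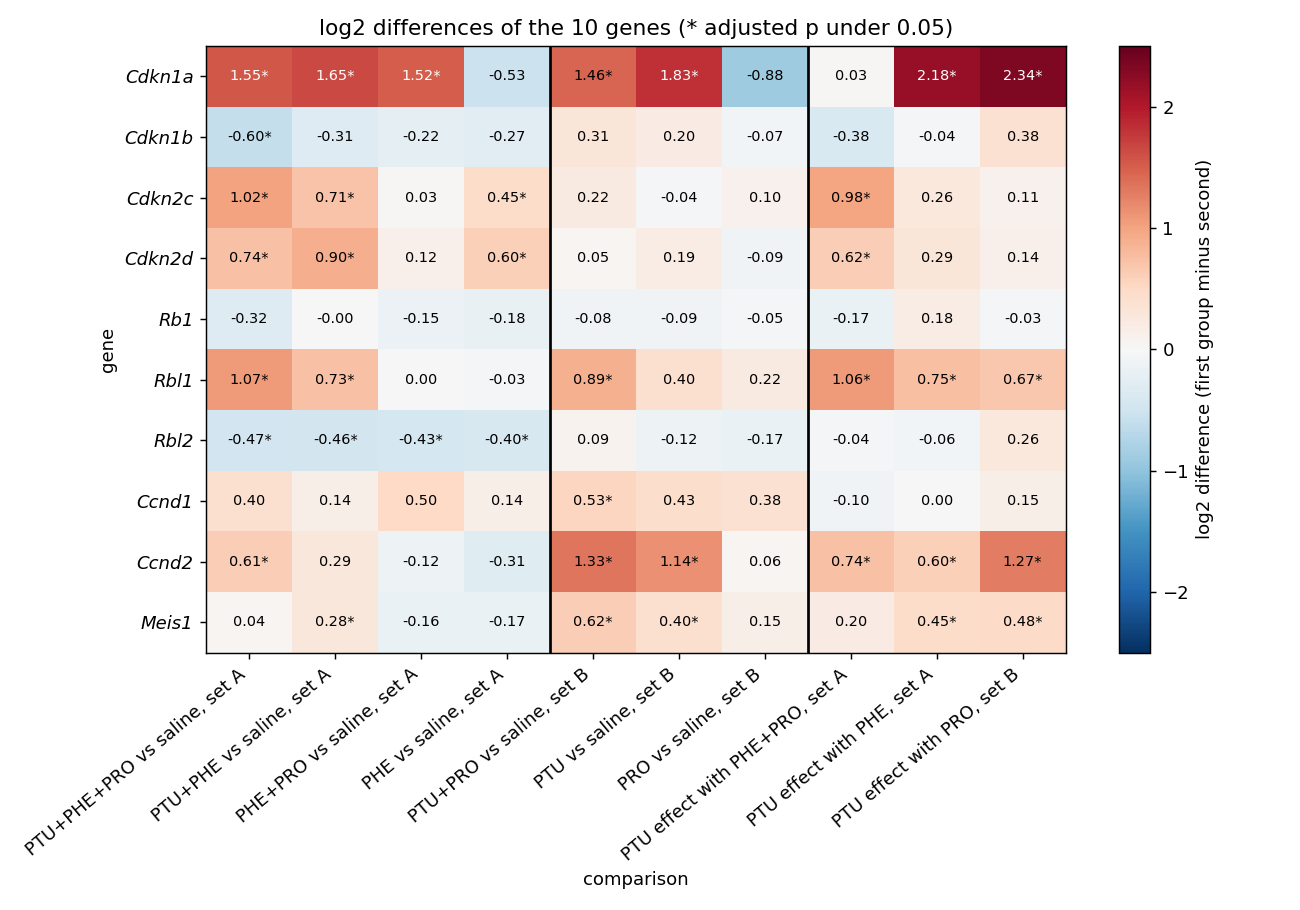
Log2 differences of the 10 genes (rows) in 10 comparisons (columns): the 7 treated groups against saline of the same set, then PTU added to PHE+PRO, to PHE and to PRO. Colour runs from -2.5 to 2.5 and an asterisk marks an adjusted p under 0.05. Cdkn1a carries the deepest colour, and the column for PRO against saline has no asterisk.

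Adding PTU to a blocker was compared within each set. With PHE+PRO, 4 members were called (47% of all genes), with PHE 4 (36.8%) and with PRO 4 (30.2%). All of these 12 calls were rises, where 24.7% of all genes rose with PHE+PRO, 18.2% with PHE and 15% with PRO. Ccnd2 and Rbl1 rose in all 3 backgrounds. These comparisons and those against saline share groups within a set, so their values are given side by side and not as repeats of each other.

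Cdkn1a (ENSMUSG00000023067, mm10 chr17:29090976-29100727, plus strand) encodes p21, the CDK inhibitor best known as a target of p53. Hearts fell into high and low groups with no overlap between them. PTU hearts had 103, 90.7 and 104 CPM, against 27, 32.2 and 24.6 CPM in the saline hearts of set B. That is a 3.55-fold rise (log2 1.83 ± 0.25 SE, adjusted p = 5.1e-06). PTU+PRO hearts had 72.0, 92.0 and 67.1 CPM and stood 1.46 ± 0.24 above saline on the log2 scale (adjusted p = 5.4e-05).

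The low group held the saline hearts and those given 1 blocker alone. In PRO hearts Cdkn1a was 15.8, 13.9 and 15.8 CPM, below every saline heart of set B. The log2 difference of -0.88 ± 0.24 had an unadjusted p of 0.0016 and an adjusted p of 0.15, so it was not called. It passed with DESeq2 (adjusted p = 0.031), when set B was fitted alone (0.0071) and when the PRO and saline groups were fitted alone (0.018). In PHE hearts the values were 11.7, 28.0 and 18.8 CPM, against 27.8, 31.1 and 25.5 CPM in the saline hearts of set A. These groups overlapped, through PHE heart 2 (log2 -0.53 ± 0.24, adjusted p = 0.14). Without that heart the difference was -0.93 with an adjusted p of 0.028.

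Given together, the same blockers went with a high level. PHE+PRO hearts had 67.8, 89.1 and 85.3 CPM of Cdkn1a, all above every saline, PHE and PRO heart. Against saline this was a rise of 1.52 ± 0.24 (adjusted p = 0.0012), and it was among the 5.59% of genes called in that comparison. Myh6 averaged 36833 CPM in the same 3 hearts, against 34482 CPM in saline (log2 difference 0.10, adjusted p = 0.76).

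PTU added to PHE brought Cdkn1a to 109.9, 52.1 and 102 CPM, against the 11.7 to 28.0 CPM of PHE hearts. The rise was 2.18 ± 0.25 (adjusted p = 4.9e-07), and PTU+PHE heart 2 was the lowest of its group. PTU added to PRO gave a rise of 2.34 ± 0.25 over PRO hearts (adjusted p = 1.9e-07). PTU added to PHE+PRO gave 80.9, 75.5 and 90.4 CPM, which lies inside the 67.8 to 89.1 CPM of PHE+PRO hearts except for the highest value. The difference there was 0.03 ± 0.24, with a 95% interval of -0.47 to 0.52 and an adjusted p of 0.94. Against saline, the rise was 1.55 ± 0.24 in PTU+PHE+PRO hearts (adjusted p = 1.6e-05) and 1.65 ± 0.24 in PTU+PHE hearts (adjusted p = 9.4e-06).

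The differences between these effects were tested directly. Within set A, the PTU effect with PHE+PRO minus that with PHE was -2.15 ± 0.34 (adjusted p = 0.003), in a test that called 1.05% of all genes. It lost its call when set A was fitted alone (adjusted p = 0.059) and when its 4 groups were fitted alone (0.081), with log2 differences of -2.54 to -1.91 over all alternatives. Across the sets, the PTU effect with PHE+PRO minus that with PRO was -2.32 ± 0.34 (adjusted p = 0.00041, 11.7% of genes called). The matching test in set B, PTU with PRO minus PTU without, gave 0.52 ± 0.34 for Cdkn1a and called 0 members, 3 genes in all (0.0157%), with 1003 at an unadjusted p under 0.05. DESeq2 also called 0 members there.

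Turned the other way, adding PRO to PHE raised Cdkn1a by 2.05 ± 0.25 (adjusted p = 8.7e-05, 5.82% of genes called). Adding PRO to PTU gave -0.36 (adjusted p = 0.73) and to PTU+PHE -0.10 (adjusted p = 0.9). In the last comparison 0 members and 549 genes were called (2.87%) by edgeR, with 3130 at an unadjusted p under 0.05, and DESeq2 called 0 members too. The PRO effect with PHE minus the PRO effect in hearts without PHE, across the sets, was 2.93 ± 0.35 (adjusted p = 0.00012), and Cdkn1a was the 1 member called where 1.58% of all genes were. The 4 comparisons of PRO in this paragraph were added after the Cdkn1a values had been seen.

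**Figure D2:**
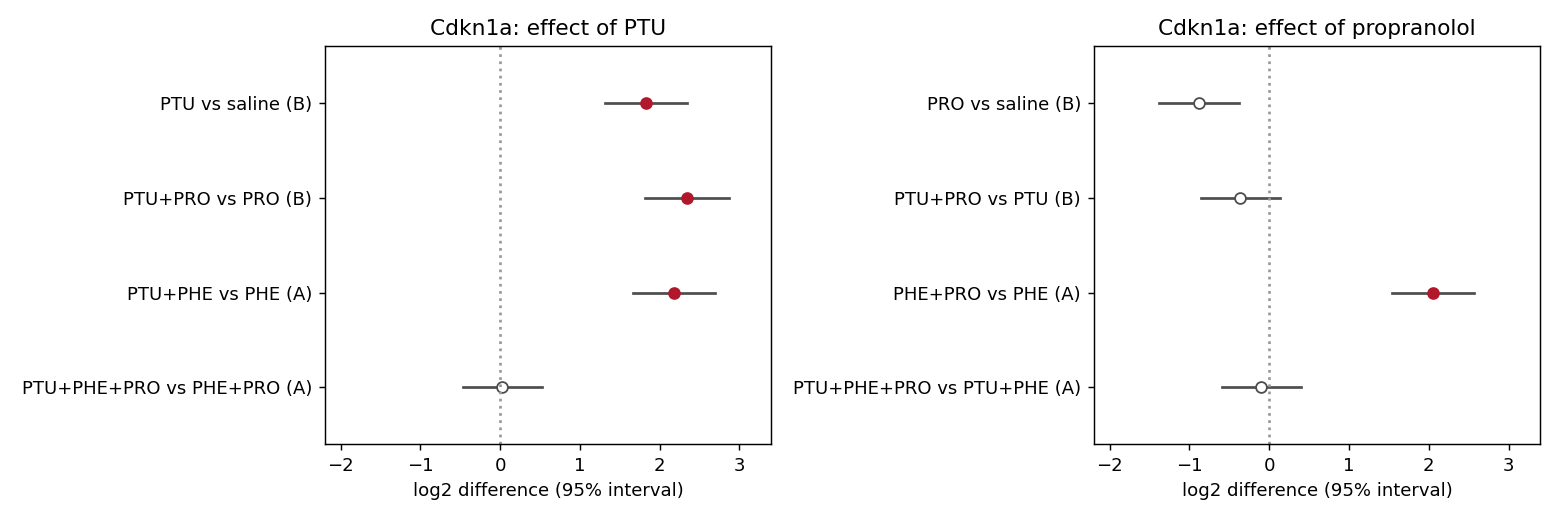
Cdkn1a, log2 difference with its 95% interval: on the left PTU added to saline, PRO, PHE or PHE+PRO, and on the right PRO added to saline, PTU, PHE or PTU+PHE. Filled red points have an adjusted p under 0.05. PTU raised Cdkn1a by 1.83 to 2.34 except on top of PHE+PRO (0.03), and PRO raised it only on top of PHE (2.05) among the 4 backgrounds compared.

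Ordered by mean over all 9 groups, Cdkn1a was 99.1 ± 7.26 CPM in PTU, 88.1 ± 31.4 in PTU+PHE, 82.3 ± 7.55 in PTU+PHE+PRO, 80.8 ± 11.4 in PHE+PRO and 77.0 ± 13.2 in PTU+PRO (SD, n = 3 each). Then came 28.1 ± 2.82 in set A saline, 27.9 ± 3.91 in set B saline, 19.5 ± 8.21 in PHE and 15.2 ± 1.10 in PRO. The means of the first 5 differ from each other by less than the SD within PTU+PHE, and the step from PTU+PRO to saline is the widest between neighbours. The saline groups of the 2 sets did not differ in Cdkn1a beyond their spread.

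**Figure D3:**
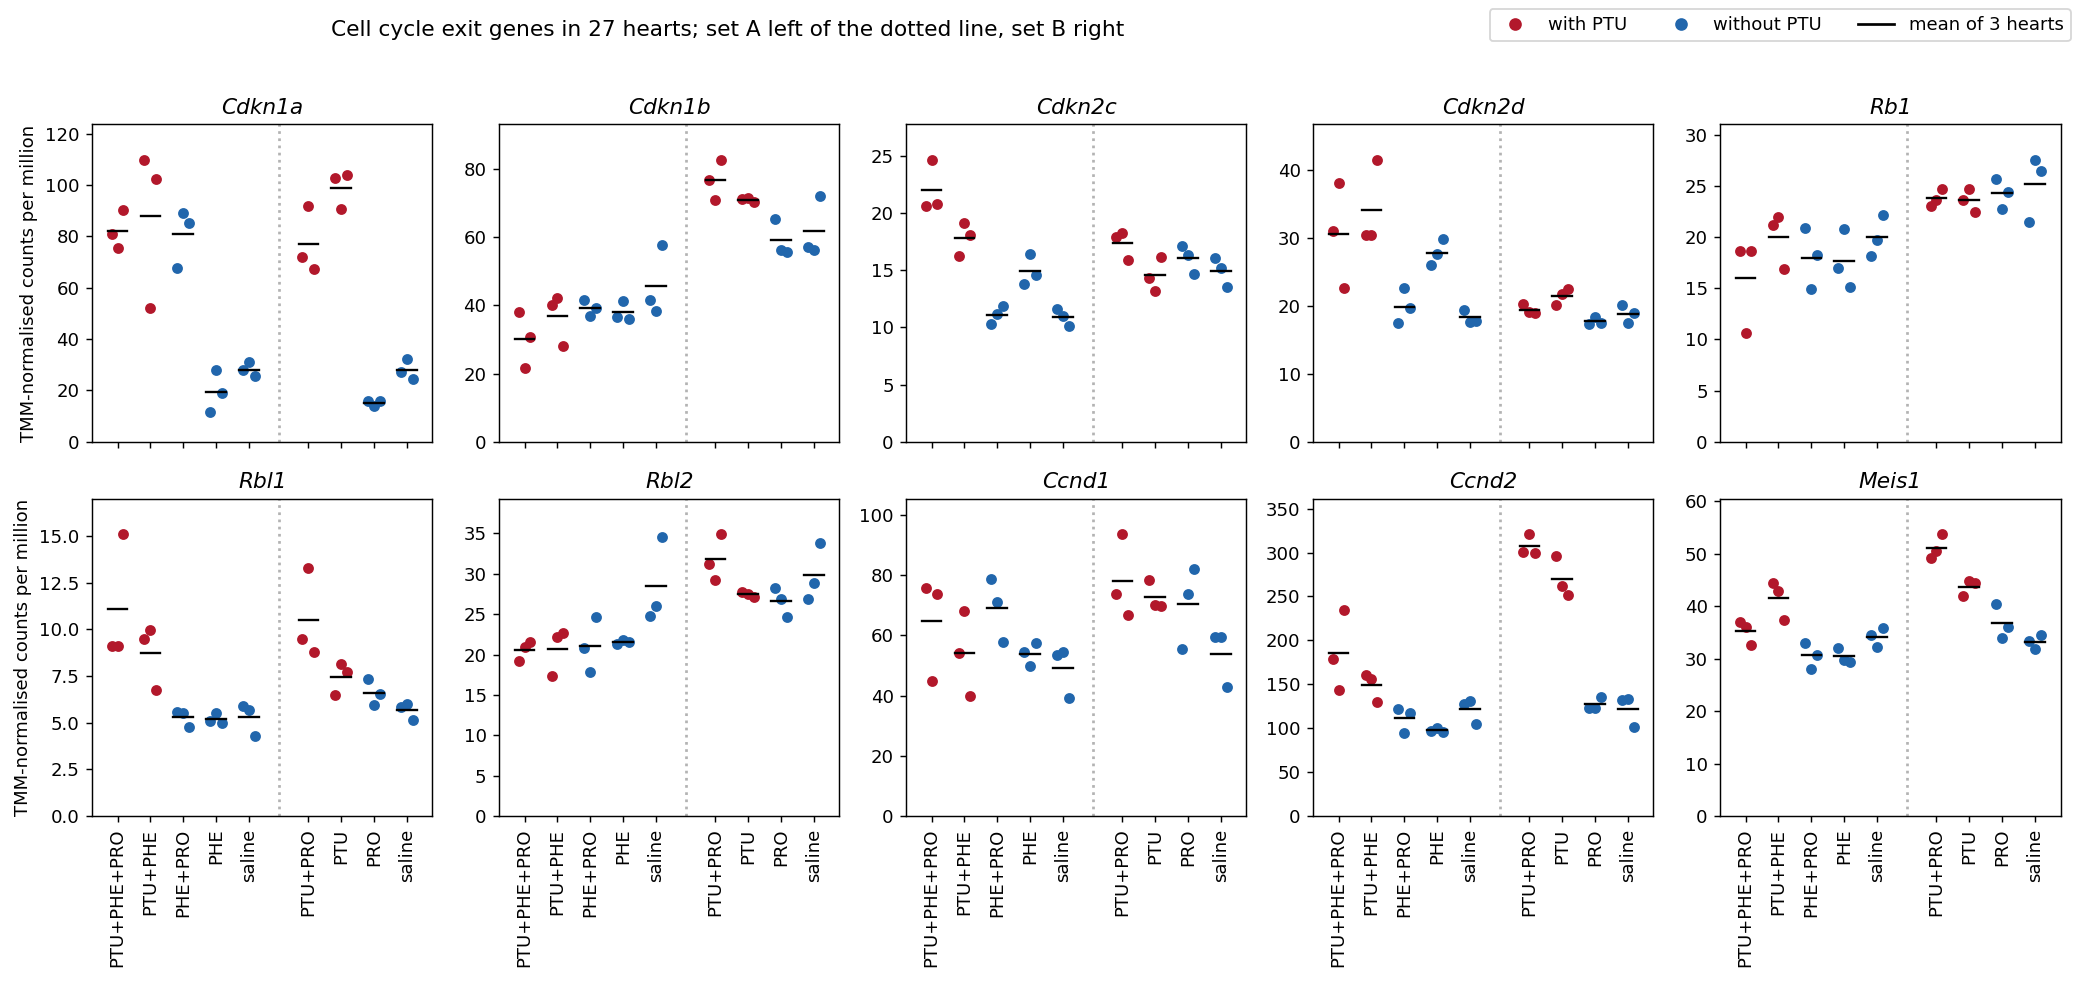
Level of each of the 10 genes (TMM-scaled CPM, 1 panel a gene) in all 27 libraries, with set A left and set B right of the dotted line. Red points are hearts with PTU, blue points hearts without, and black lines the means of 3. Cdkn1a is high in all PTU hearts and in PHE+PRO hearts (52.1 to 109.9 CPM) and low in all others (11.7 to 32.2 CPM), and Ccnd2 is highest in the PTU groups of set B.

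Cdkn1b (ENSMUSG00000003031, mm10 chr6:134920401-134925513, plus strand) encodes p27, which accumulates in many cells as they stop dividing. Against saline its RNA was called in PTU+PHE+PRO hearts only, and its direction differed between the sets. In set A the log2 difference was -0.60 in PTU+PHE+PRO, -0.31 in PTU+PHE, -0.22 in PHE+PRO and -0.27 in PHE hearts. In set B it was 0.31 in PTU+PRO, 0.20 in PTU and -0.07 in PRO hearts. PTU hearts had 71.1, 71.6 and 70.3 CPM, against 57.1, 56.4 and 72.1 CPM in set B saline, a difference that was not called. PTU+PHE+PRO hearts had 38.0, 21.6 and 30.7 CPM, against 41.5, 38.4 and 57.6 CPM in set A saline. Here it fell, by 0.60 ± 0.17 on the log2 scale (adjusted p = 0.0043), and the call was lost when only those groups were fitted (adjusted p = 0.056).

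In the other groups Cdkn1b ranged from 28.1 to 42.2 CPM in PTU+PHE, 36.8 to 41.5 in PHE+PRO and 36.0 to 41.3 in PHE hearts of set A. Set B had 70.9 to 82.7 CPM in PTU+PRO and 55.6 to 65.3 in PRO hearts. Without saline heart 2 the PTU+PHE group differed from saline by -0.45 (adjusted p = 0.049). PTU over PHE+PRO gave -0.38 (adjusted p = 0.069), which was -0.59 without PTU+PHE+PRO heart 1 (adjusted p = 0.0073). The PTU effect with PHE+PRO minus that with PRO was -0.76 ± 0.24 (adjusted p = 0.04), but it stayed called in only 3 of the 12 fits that left out a library of those groups (-0.81 to -0.57 in the other 9), and it was lost without a filter on low counts (adjusted p = 0.054), with its groups fitted alone (0.063) and with a length offset (-0.66, adjusted p = 0.069). Among its 12 libraries the call held only without PRO heart 1, PTU+PRO heart 2 or PTU+PHE+PRO heart 1.

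Cdkn2c (ENSMUSG00000028551, mm10 chr4:109660876-109667189, minus strand) encodes p18, an inhibitor of CDK4 and CDK6. It reached 20.6, 24.7 and 20.8 CPM in PTU+PHE+PRO hearts and 16.3, 19.1 and 18 CPM in PTU+PHE hearts, against 11.6, 11.0 and 10.1 CPM in saline. All treated hearts of these groups lay above saline. The rise was 1.02 ± 0.11 in PTU+PHE+PRO (adjusted p = 5.1e-08) and 0.71 ± 0.11 in PTU+PHE (adjusted p = 9.1e-06).

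PHE without PTU gave 13.8, 16.4 and 14.6 CPM of Cdkn2c, a rise of 0.45 ± 0.11 over saline (adjusted p = 0.012). That call did not hold when set A was fitted alone (adjusted p = 0.087), with the length offset (0.27, adjusted p = 0.099), or without saline heart 3, PHE heart 2 or PHE heart 3. PHE+PRO hearts had 10.3, 11.2 and 11.9 CPM and overlapped saline. In set B, Cdkn2c ran from 13.2 to 18.2 CPM over all 12 hearts, and none of the 3 treatments was called there.

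The PTU effect on Cdkn2c was therefore compared between backgrounds. Over PHE+PRO it was 0.98 ± 0.11 (adjusted p = 1.2e-07). The PTU effect with PHE did not exceed the PTU effect in set B past the threshold (0.29 ± 0.15, adjusted p = 0.27). That with PHE+PRO exceeded the PTU effect with PRO in set B by 0.87 ± 0.15 (adjusted p = 0.0013) and the PTU effect with PHE in set A by 0.73 ± 0.15 (adjusted p = 0.022). The last value fell short of the threshold without a filter on low counts, in the fit of set A alone (adjusted p = 0.13), in the fit of its groups alone (0.21), and without any 1 of 5 libraries: PTU+PHE heart 1, PTU+PHE+PRO heart 2, PHE heart 2, PHE+PRO heart 1 or PHE+PRO heart 2a. Cdkn2c was also the 1 member that differed between saline hearts of the sets, with 10.9 ± 0.75 CPM in set A and 14.9 ± 1.31 CPM in set B (log2 -0.45 ± 0.11, adjusted p = 0.012, 4.26% of genes called). Without set A saline heart 2 or 3, or set B saline heart 1 or 2, that difference was -0.44 to -0.37 and no longer called.

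Saline hearts with the same number deviated together across the sets, so the 6 were also fitted alone with the number as a block. Then 4 members differed between set A and set B saline, in a fit that called 6000 of 16971 genes. They were Cdkn2c by -0.45 (adjusted p = 2.3e-07), Cdkn1b by -0.43 (1.5e-10), Rb1 by -0.32 (3.8e-06) and Ccnd1 by -0.13 (0.003). Whether same-numbered hearts are the same animals is not stated, so these p-values may not measure the spread between hearts. Cdkn1b averaged 45.8 ± 10.4 CPM in set A saline and 61.9 ± 8.89 CPM in set B saline. Treated groups were therefore set against the saline group of their own set throughout.

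Cdkn2d (ENSMUSG00000096472, mm10 chr9:21288410-21291407, minus strand) encodes p19 of the INK4 family, which is known to keep postmitotic cells of the mouse nervous system from dividing. It had 31.1, 38.2 and 22.6 CPM in PTU+PHE+PRO, 30.5, 30.5 and 41.6 CPM in PTU+PHE and 26.1, 27.6 and 29.9 CPM in PHE hearts, against 19.4, 17.7 and 17.9 CPM in saline. No heart of the 3 groups came down to the saline values. The rise over saline was 0.74 ± 0.14 in PTU+PHE+PRO (adjusted p = 9.7e-05), 0.90 ± 0.14 in PTU+PHE (adjusted p = 1.1e-05) and 0.60 ± 0.14 in PHE (adjusted p = 0.01). The PHE call was lost in the fit of set A alone (adjusted p = 0.095) and without saline heart 3 (0.55, adjusted p = 0.051) or PHE heart 3 (0.54, adjusted p = 0.063). PHE+PRO hearts, at 17.5, 22.6 and 19.7 CPM, overlapped saline.

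In set B no treatment was called for Cdkn2d, and all 12 hearts lay between 17.4 and 22.5 CPM. The PTU effects of the sets were not told apart for this gene: with PHE+PRO minus with PRO the difference was 0.49 ± 0.20 (adjusted p = 0.1), and with PHE minus without it was 0.11 ± 0.20 (adjusted p = 0.8). PTU raised it over PHE+PRO by 0.62 ± 0.14 (adjusted p = 0.00078). Without PTU+PHE+PRO heart 2, the highest of its group, this was 0.41 (adjusted p = 0.013). When PRO was added to PHE, Cdkn2d fell by 0.48 ± 0.14 (adjusted p = 0.04) and Cdkn2c by 0.42 ± 0.11 (adjusted p = 0.023). Both calls were lost in the fit of set A alone and without PHE heart 2, PHE heart 3 or PHE+PRO heart 1. The Cdkn2d call was also lost without PHE heart 1 or PHE+PRO heart 2b, with values of -0.51 to -0.38 over these 5 fits, and the length offset made it -0.29 (adjusted p = 0.029). The Cdkn2c call was also lost without PHE+PRO heart 2a, with values of -0.44 to -0.33 over its 4 fits, without a filter on low counts (adjusted p = 0.067), with the groups compared fitted alone (0.086) and with the length offset (-0.29, adjusted p = 0.095).

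Cdkn2d and Cdkn2c have the shortest transcripts of the 10, with 1574 and 2686 exon bases, so the length trends of both sets bear on them. With a length offset, the Cdkn2d rise came to 0.47 in PTU+PHE+PRO (adjusted p = 2.1e-05), 0.55 in PTU+PHE (adjusted p = 4e-06) and 0.28 in PHE hearts (adjusted p = 0.033). All 3 stayed called at smaller size. The offset added calls for Cdkn2d in PTU hearts (0.24, adjusted p = 0.019) and, for PTU added to PHE, for Cdkn2c (0.27, adjusted p = 0.036) and Cdkn2d (0.26, adjusted p = 0.0099). At the other end, Rbl2 with 7558 bases lost its calls in set A, and Meis1 with 10532 bases gained one in PTU+PHE+PRO (0.29, adjusted p = 0.0037). For Cdkn1a, with 3553 bases, no call against saline changed.

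**Figure D4:**
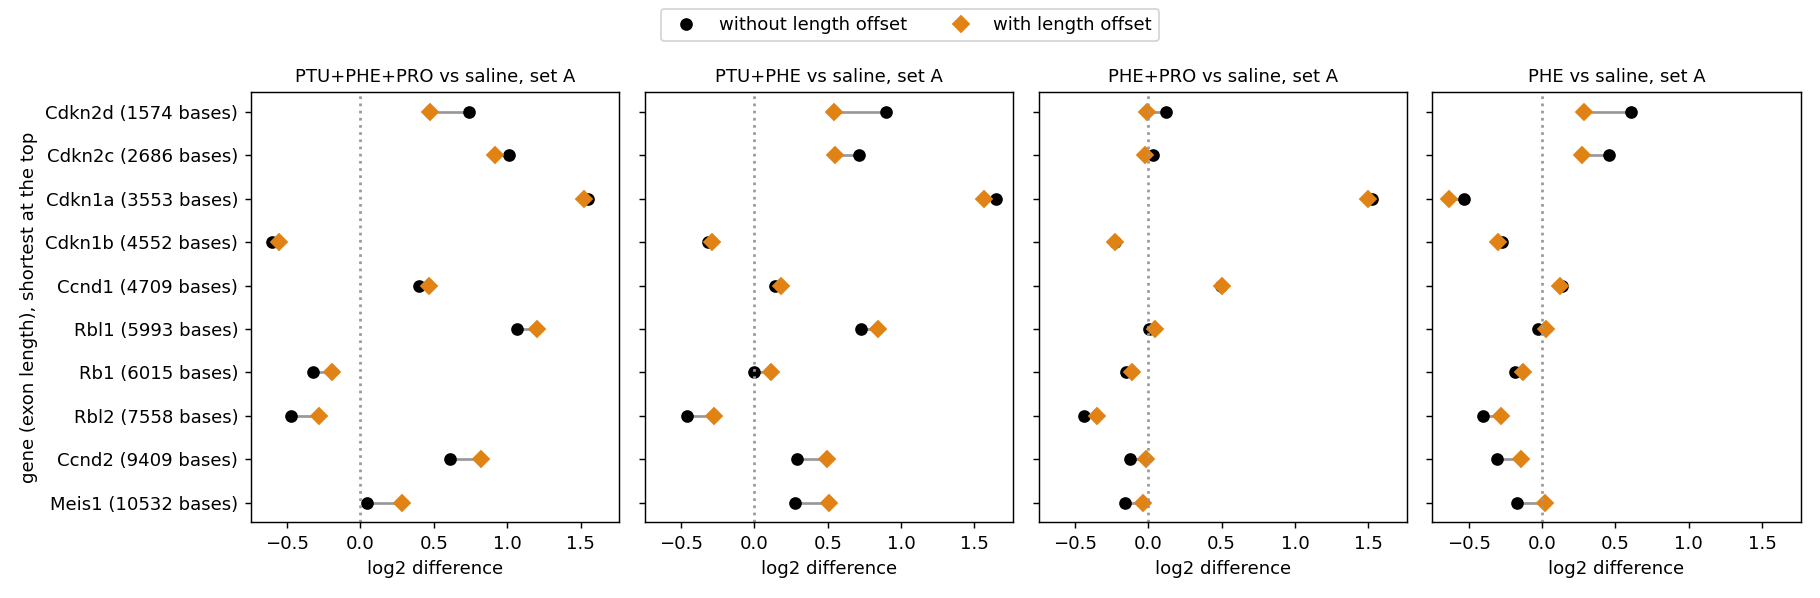
Log2 difference from saline in the 4 treated groups of set A, 1 panel a group, with the 10 genes ordered by exon length, the shortest at the top. Black circles are without and orange diamonds with the length offset. The offset moves the shortest gene, Cdkn2d, down (0.90 to 0.55 in PTU+PHE) and the longest, Meis1, up (0.28 to 0.51), while Cdkn1a moves little.

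Pocket proteins hold E2F factors in check, and the 3 genes behaved differently. Rb1 (ENSMUSG00000022105, mm10 chr14:73183673-73325822, minus strand), the retinoblastoma gene, was called in none of the 19 comparisons. Its hearts ranged from 22.5 to 24.8 CPM in PTU and 23.1 to 24.7 CPM in PTU+PRO, against 21.5 to 27.6 CPM in set B saline. In PTU+PHE+PRO hearts it had 18.7, 10.6 and 18.7 CPM, against 18.2, 19.8 and 22.1 CPM in set A saline (log2 -0.32, adjusted p = 0.1). Without a filter on low counts that difference had an adjusted p of 0.037, and without PTU+PHE+PRO heart 1 or 3 it was -0.46 (adjusted p = 0.035) and -0.44 (adjusted p = 0.045).

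Rbl1 (ENSMUSG00000027641, mm10 chr2:157145893-157204534, minus strand) encodes p107, the pocket protein whose own gene is an E2F target and is most abundant in dividing cells. Its level per length was the lowest of the 10 genes, and its rise over saline was called wherever PTU met a blocker. PTU+PHE+PRO hearts had 9.09, 9.10 and 15.1 CPM and PTU+PHE hearts 9.50, 9.95 and 6.76 CPM, against 5.88, 5.67 and 4.29 CPM in saline. Every one of these treated hearts exceeded every saline heart. The rise was 1.07 ± 0.19 (adjusted p = 6e-05) in PTU+PHE+PRO and 0.73 ± 0.19 (adjusted p = 0.0027) in PTU+PHE hearts.

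PTU+PRO hearts had 9.47, 13.3 and 8.76 CPM of Rbl1, against 5.85, 5.99 and 5.15 CPM in set B saline, a rise of 0.89 ± 0.19 (adjusted p = 0.00068). With PTU on its own the hearts had 6.50, 8.16 and 7.71 CPM, all above saline, and the difference of 0.40 was not called (adjusted p = 0.12), although it was in the fit of set B alone (0.048) and of the 2 groups alone (0.023). Direct tests did not tell the Rbl1 effect of PTU with 1 blocker from that of PTU alone. The PTU effect with PRO minus that without was 0.27 ± 0.27 and was not called. That with PHE minus that without was 0.36 ± 0.27 (adjusted p = 0.47), and PRO added to PTU gave 0.49 ± 0.19 (adjusted p = 0.33). Rbl1 in PHE+PRO (4.77 to 5.58 CPM) and PHE hearts (4.98 to 5.49 CPM) stayed in the saline range. PTU raised Rbl1 over PHE+PRO by 1.06 ± 0.19 (adjusted p = 8.8e-05), over PHE by 0.75 ± 0.19 (adjusted p = 0.0032) and over PRO by 0.67 ± 0.19 (adjusted p = 0.0088). The last of these lost its call without PRO heart 2 (0.58, adjusted p = 0.059) or PTU+PRO heart 2 (0.47, adjusted p = 0.089). Its promoter window is the one printed above with the E2F match.

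Rbl2 (ENSMUSG00000031666, mm10 chr8:91070057-91123844, plus strand) encodes p130, the pocket protein typical of quiescent cells. It was lower in all 4 treated groups of set A. The hearts had 19.2, 20.9 and 21.6 CPM in PTU+PHE+PRO, 17.4, 22.2 and 22.6 in PTU+PHE, 20.9, 17.8 and 24.6 in PHE+PRO and 21.4, 21.8 and 21.6 in PHE, against 24.8, 26.0 and 34.6 CPM in saline. All 12 treated hearts lay below all 3 saline hearts. Rbl2 fell by 0.47 ± 0.13 (adjusted p = 0.0034), 0.46 ± 0.13 (adjusted p = 0.0043), 0.43 ± 0.13 (adjusted p = 0.046) and 0.40 ± 0.13 (adjusted p = 0.039) on the log2 scale, in the same order of groups.

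With the length offset these became -0.28 (adjusted p = 0.07), -0.28 (0.076), -0.35 (0.11) and -0.28 (0.18), none of them called. Without set A saline heart 3, the highest at 34.6 CPM, the difference was -0.29 in PHE+PRO (adjusted p = 0.24) and -0.27 in PHE (adjusted p = 0.21). The call in PHE hearts was also lost without any 1 PHE heart (-0.44 to -0.41), and that in PHE+PRO hearts without heart 1 (-0.44) or 2a (-0.34). In the fit of set A alone neither was called. In set B Rbl2 was not called: it had 29.2 to 34.9 CPM in PTU+PRO, 27.2 to 27.8 in PTU and 24.7 to 28.2 in PRO hearts, against 26.8 to 33.8 CPM in saline. Exons of Aktip and Gm45464 on the other strand cover 9.17% and 11.8% of its exon bases, and a kit that does not mark strand cannot separate those reads.

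D cyclins drive the first step out of rest. Ccnd1 (ENSMUSG00000070348, mm10 chr7:144929931-144939925, minus strand) varied widely between hearts of a group. In PTU+PRO hearts it had 73.6, 93.8 and 66.8 CPM, against 59.4, 59.6 and 42.9 CPM in set B saline, a rise of 0.53 ± 0.20 (adjusted p = 0.045). That call was lost without a filter on low counts (adjusted p = 0.11), with the length offset (0.49, adjusted p = 0.073) and in 5 of 6 fits that left out a library, those without PTU+PRO heart 1 or 2 or any of the saline hearts, where it ran from 0.38 to 0.61.

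PTU hearts had 78.4, 70.2 and 69.8 CPM of Ccnd1, all above saline, a difference of 0.43 that was not called (adjusted p = 0.12), though it was in the fit of those 2 groups alone (0.028). PRO hearts had 55.6, 73.6 and 82.1 CPM and overlapped saline. In set A no comparison called Ccnd1. Its hearts had 75.7, 45.0 and 73.7 CPM in PTU+PHE+PRO, 54.3, 68.0 and 39.8 in PTU+PHE, 78.9, 71.2 and 57.7 in PHE+PRO and 54.4, 49.8 and 57.5 in PHE, against 53.5, 54.4 and 39.3 CPM in saline. Without PTU+PHE+PRO heart 2, the lowest of its group, the difference of that group from saline was 0.57 (adjusted p = 0.027). Of its exon bases 23.4% are shared with LTO1 on the other strand.

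Ccnd2 (ENSMUSG00000000184, mm10 chr6:127125162-127152193, minus strand), the D cyclin gene with the highest level here, separated PTU hearts of set B from all others. PTU+PRO hearts had 301, 321 and 299.5 CPM and PTU hearts 296, 262 and 251 CPM, against 133, 133 and 101 CPM in saline. The rise was 1.33 ± 0.14 (adjusted p = 8.5e-08) with PTU+PRO and 1.14 ± 0.14 (adjusted p = 1.1e-06) with PTU. PRO hearts, at 123, 123 and 136 CPM, overlapped saline.

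In set A the rise of Ccnd2 was smaller. PTU+PHE+PRO hearts had 179, 143 and 235 CPM and PTU+PHE hearts 160.3, 156 and 130.2 CPM, against 128, 131 and 105 CPM in saline. The first group rose by 0.61 ± 0.14 (adjusted p = 0.00079), and the second differed by 0.29 (adjusted p = 0.082), which the length offset moved to 0.50 (adjusted p = 0.0018). PTU raised Ccnd2 over PHE+PRO by 0.74 ± 0.14 (adjusted p = 0.00016), over PHE by 0.60 ± 0.14 (adjusted p = 0.0017) and over PRO by 1.27 ± 0.14 (adjusted p = 2e-07).

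The Ccnd2 effect of PTU was compared between the sets by a test of the difference. The PTU effect with PHE minus the PTU effect without was -0.54 (adjusted p = 0.11), and that with PHE+PRO minus that with PRO was -0.54 (adjusted p = 0.079). The first of these tests called 0 members, with 783 genes called in all (4.1%) and 4091 at an unadjusted p under 0.05, and 0 members with DESeq2. Without a filter on low counts the values were -0.59 in both, with adjusted p of 0.029 and 0.014. The second also passed without PTU+PHE+PRO heart 3 (-0.74, adjusted p = 0.013). Groups with PHE alone (97.3, 101 and 96.1 CPM) and PHE+PRO (122, 95 and 117 CPM) were not called against saline, though PHE was in the fit of those 2 groups alone (-0.32, adjusted p = 0.042).

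Meis1 (ENSMUSG00000020160, mm10 chr11:18879817-19018985, minus strand) rose with PTU, and the rises were small and tight. PTU+PRO hearts had 49.2, 50.5 and 53.8 CPM and PTU hearts 42.0, 44.7 and 44.4 CPM, against 33.3, 31.7 and 34.6 CPM in saline. The rise was 0.62 ± 0.08 (adjusted p = 2.9e-06) with PTU+PRO and 0.40 ± 0.08 (adjusted p = 0.00088) with PTU. PRO hearts had 40.3, 34.0 and 36.0 CPM, and the difference was not called. Adding PRO to PTU gave no member call either, in a comparison that called 123 genes (0.643%) and had 1752 at an unadjusted p under 0.05. DESeq2 called 0 members as well. In the fit of those 2 groups alone Meis1 was called there (0.22, adjusted p = 0.034).

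In set A, PTU+PHE hearts had 44.4, 42.9 and 37.3 CPM of Meis1, against 34.5, 32.3 and 35.8 CPM in saline. The rise was 0.28 ± 0.08 (adjusted p = 0.0075). It was not called without a filter on low counts (adjusted p = 0.088), in the fit of set A alone (0.058), in that of the 2 groups alone (0.083) or without saline heart 2 (0.21, adjusted p = 0.079), and with the length offset it was 0.51 (adjusted p = 1.1e-05). PTU+PHE+PRO hearts had 36.9, 36.0 and 32.6 CPM and overlapped saline, and only the length offset gave a call there (0.29, adjusted p = 0.0037). PHE+PRO (33, 28.1 and 30.7 CPM) overlapped saline at its highest heart. PHE hearts had 32.1, 29.8 and 29.4 CPM, below every saline heart, and this difference was not called.

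PTU raised Meis1 over PHE by 0.45 ± 0.08 (adjusted p = 2e-04) and over PRO by 0.48 ± 0.08 (adjusted p = 0.00011). Over PHE+PRO the difference was 0.20 (adjusted p = 0.054), which passed with RLE scaling (0.21, adjusted p = 0.047), DESeq2 (0.21, adjusted p = 0.039) and the length offset (0.32, adjusted p = 0.0017). It also passed without PTU+PHE+PRO heart 3 (0.25, adjusted p = 0.028). The direction was the same in all 3 backgrounds.

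Per kilobase of exon, the order in set B saline hearts was Cdkn1b (13.6 CPM per kb), Ccnd2 (13), Cdkn2d (12), Ccnd1 (11.5), Cdkn1a (7.86), Cdkn2c (5.56), Rb1 (4.18), Rbl2 (3.95), Meis1 (3.15) and Rbl1 (0.945). In PTU hearts Ccnd2 (28.7 CPM per kb) and Cdkn1a (27.9) came first, ahead of Cdkn1b at 15.6.

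Genes of the same pathway were counted from lists drawn up beside the 10. The share of all genes called higher was 28.7% in PTU+PHE+PRO, 28.2% in PTU+PHE, 17.7% in PTU+PRO and 14.3% in PTU hearts, and that called lower 26%, 25.2%, 18.1% and 15.1%. Of 20 proliferation genes, 19 rose in PTU+PHE+PRO hearts and 18 in PTU+PHE hearts, with median log2 differences of 1.67 and 1.14, and 14 rose in PTU+PRO hearts (median 0.78). PTU on its own raised 2 of the 20, Tk1 and Mcm7 (median 0.42). PHE raised 6 (8.14% of all genes, median 0.51). PHE+PRO (2.51%) and PRO (0.272% called either way) raised 0. Over all genes tested, each of these medians lay within 0.04 of 0. By tests of the difference, 0 of the 20 were called for PTU with PRO minus PTU, and 0 for PTU with PHE minus PTU. For PTU with PHE+PRO, 8 were higher than for PTU with PRO (11.7% of genes called), and 1 than for PTU with PHE (1.05%).

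Tk1, thymidine kinase of the S phase, averaged 28.0 CPM in PTU hearts, against 8.75 CPM in saline (1.68 ± 0.15, adjusted p = 9.5e-09). In PTU+PHE+PRO hearts Cdk1, the kinase of mitotic entry, averaged 37.8 CPM, against 7.16 CPM in saline (2.40 ± 0.25, adjusted p = 4.6e-08). Summed over the 20 genes, hearts held 549.9 to 700.2 CPM in PTU+PHE+PRO, 489.9 to 552.2 in PTU+PHE, 249.3 to 258 in PHE+PRO and 287.5 to 376 in PHE, against 184.1 to 285.7 CPM in saline. The sum in set B was 335.6 to 443.2 CPM in PTU+PRO, 255.8 to 289.4 in PTU and 229.9 to 268.4 in PRO, against 166.6 to 246.3 CPM in saline. PTU hearts, with 90.7 to 104 CPM of Cdkn1a, had a proliferation sum that overlapped that of PRO hearts, with 13.9 to 15.8 CPM. The sum in PTU hearts lay above that of every set B saline heart. PTU+PHE+PRO, PTU+PHE and PTU+PRO hearts, also high in Cdkn1a, had sums above every saline heart of their set. PHE+PRO hearts had high Cdkn1a with a proliferation sum inside the saline range.

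Kinases and cyclins that the 10 genes act on were counted next. Of 11 G1 cyclins and kinases, 8 rose in PTU+PHE+PRO (28.7% of all genes), 8 in PTU+PHE (28.2%), 6 in PTU+PRO (17.7%) and 4 in PTU hearts (14.3%), with 1 lower in the last. The medians were 0.81, 0.62, 0.45 and 0.18 in the same order. Cdk2, the partner of cyclin E, rose by 1.15 ± 0.08 in PTU+PHE+PRO (adjusted p = 2.1e-11) and by 0.59 ± 0.08 in PTU hearts (adjusted p = 1.8e-06). Ccnd3, the remaining D cyclin gene, rose by 0.96 ± 0.12 in PTU+PHE+PRO (adjusted p = 5.8e-07) and by 0.79 ± 0.12 in PTU hearts (adjusted p = 1.9e-05). Cdk6 rose by 0.45 ± 0.11 in PTU hearts (adjusted p = 0.003).

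Of 10 E2F and DP factors, 3 were higher and 2 lower in PTU+PHE+PRO, 3 and 3 in PTU+PHE, 2 and 1 in PTU+PRO, and 0 and 2 in PTU hearts. Those shares are near those of all genes in the first 2 groups (28.7% higher and 26% lower, 28.2% and 25.2%). In set B the shares of all genes were 17.7% and 18.1% in PTU+PRO and 14.3% and 15.1% in PTU hearts, also near these small counts. The list's medians lay between -0.13 and 0.15. E2f1, an activator, rose by 2.22 ± 0.28 in PTU+PHE+PRO (adjusted p = 6.6e-07). E2f6, a repressor, fell there by 0.74 ± 0.07 (adjusted p = 6.5e-09) and in PTU hearts by 0.56 ± 0.07 (adjusted p = 1.2e-06). Partners of Rbl1 and Rbl2 in the DREAM and MuvB complexes, 8 genes, were called higher 5 times and lower 1 time in both PTU+PHE+PRO and PTU+PHE, 3 and 1 times in PTU+PRO and 0 times in PTU hearts (medians 0.51, 0.37, 0.18 and 0.12). Mybl2, which joins MuvB in dividing cells, rose by 1.94 ± 0.25 in PTU+PHE+PRO (adjusted p = 9.3e-07).

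Among 13 genes for the turnover of p27 and D cyclins, 7 rose and 3 fell in PTU+PHE+PRO, 5 and 3 in PTU+PHE, 1 and 3 in PTU+PRO, and 1 and 4 in PTU hearts. Several of these are near the shares of all genes, which were 28.7% higher and 26% lower, 28.2% and 25.2%, 17.7% and 18.1%, and 14.3% and 15.1% in the same order, and the medians were 0.24, 0.16, -0.10 and -0.15. Fbxo31, an F-box protein that targets cyclin D1, fell by 1.60 ± 0.18 in PTU+PHE+PRO (adjusted p = 1.9e-07) and by 1.10 ± 0.18 in PTU hearts (adjusted p = 5.4e-05). Rnf123, a ubiquitin ligase for p27, fell by 0.74 ± 0.09 in PTU+PHE+PRO (adjusted p = 1.6e-07) and by 0.38 ± 0.08 in PTU hearts (adjusted p = 0.0014). Of the 4 other CDK inhibitors, 2 rose in PTU+PHE+PRO, 3 in PTU+PHE, 3 in PHE (8.14% of all genes) and 0 in PHE+PRO (2.51%), with 0 lower in each. In PTU+PRO 0 rose and 1 fell, and in PTU hearts 1 rose and 1 fell. The medians were 1.64, 2.03, 1.37, 0.64, 0.20 and -0.07 in that order. Cdkn3, a phosphatase that acts on CDKs, rose by 2.57 ± 0.33 in PTU+PHE+PRO hearts (adjusted p = 7.9e-07). Cdkn1c, which encodes p57 of the CIP/KIP family, fell by 0.40 ± 0.10 in PTU+PRO hearts (adjusted p = 0.0031) and by 0.30 ± 0.10 in PTU hearts (adjusted p = 0.029).

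Other p53 targets moved in both directions. Of 22, 4 rose and 6 fell in PTU+PHE+PRO (28.7% and 26% of all genes), 4 and 5 in PTU+PHE (28.2% and 25.2%) and again in PHE hearts (8.14% and 6.64%). In set B, 6 rose and 5 fell in PTU+PRO (17.7% and 18.1%) and 9 and 5 in PTU hearts (14.3% and 15.1%). The medians were -0.08 in PTU+PHE+PRO, 0.05 in PTU+PHE, -0.08 in PHE, 0.24 in PTU+PRO and 0.31 in PTU hearts. In PHE+PRO hearts, where Cdkn1a rose, 0 of the 22 rose and 1 fell, with a median of -0.07. These counts are near the shares of all genes there (2.51% higher and 3.09% lower). The 1 that fell was Eda2r (-1.13 ± 0.22, adjusted p = 0.0046). In PTU hearts, Phlda3 rose by 1.78 ± 0.19 (adjusted p = 9.4e-08) and Perp by 1.01 ± 0.11 (adjusted p = 1.3e-07). Gadd45a, a growth arrest gene, fell there by 2.11 ± 0.14 (adjusted p = 6.5e-11).

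Of 8 tested partners and relatives of Meis1, 3 rose and 1 fell in PTU+PHE+PRO (28.7% and 26% of all genes) and in PTU+PHE (28.2% and 25.2%), 4 and 1 in PTU+PRO (17.7% and 18.1%), and 5 and 1 in PTU hearts (14.3% and 15.1%). The medians were 0.20, 0.22, 0.34 and 0.33. Meis2, a paralog of Meis1, rose by 0.54 ± 0.10 in PTU hearts (adjusted p = 0.00022) and by 0.73 ± 0.10 in PTU+PRO hearts (adjusted p = 4.4e-06). Pbx2, a homeobox partner of MEIS proteins, rose by 0.31 ± 0.07 in PTU hearts (adjusted p = 0.0024) and by 0.62 ± 0.08 in PTU+PHE+PRO hearts (adjusted p = 2.9e-07).

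Markers of other cells moved beside these genes. Of all genes tested, 28.7% were called higher in PTU+PHE+PRO, 28.2% in PTU+PHE, 2.51% in PHE+PRO and 8.14% in PHE hearts. The shares called lower were 26%, 25.2%, 3.09% and 6.64%. In set B, 17.7% were higher and 18.1% lower in PTU+PRO, 14.3% and 15.1% in PTU, and 0.272% were called in PRO hearts. In lists of 6, counts of 1 or 2 in a direction are near these shares in PTU+PHE+PRO and PTU+PHE. All 6 granulocyte markers rose in PTU+PHE+PRO, PTU+PHE and PHE hearts and 3 did in PHE+PRO, with sums of 19.9 to 61.7, 36.8 to 84.1, 15.6 to 28.4 and 7.89 to 16.5 CPM, against 2.60 to 5.45 CPM in saline. In set B, 3 rose in PTU+PRO (3.92 to 8.50 CPM), 1 in PTU (3.68 to 7.09 CPM) and 0 in PRO hearts (3.31 to 5.33 CPM), against 1.74 to 3.47 CPM in saline. Ly6g was at 0 in 8 libraries. All 6 macrophage markers fell in each of the 4 PTU groups, to sums of 77.9 to 87.1 CPM in PTU+PHE+PRO and 74.8 to 97.0 CPM in PTU+PHE, against 168 to 188.7 CPM in set A saline. The sums were 62.1 to 78.0 CPM in PTU+PRO and 70.5 to 76.3 CPM in PTU, against 147.5 to 170 CPM in set B saline. Without PTU, 3 macrophage markers fell in PHE (129.4 to 186.1 CPM), 2 in PHE+PRO (137.8 to 150.3 CPM) and 0 in PRO hearts (126.1 to 131.5 CPM). The sums in PHE+PRO and PRO hearts lay below those of the saline hearts of their set. Of the 6 cardiomyocyte markers, 1 rose and 3 fell in PTU+PHE+PRO, PTU+PRO and PTU hearts and 1 and 2 in PTU+PHE, with medians of -0.20, -0.56, -0.45 and -0.12 on the log2 scale. Their summed level is mostly Myh6 in groups without PTU, but not in the PTU groups. The sum of the 6 was 20820 to 26710 CPM in PTU+PHE+PRO and 25460 to 27080 in PTU+PHE. It was 59190 to 61720 CPM in PHE+PRO and 53450 to 61520 in PHE, against 52760 to 60850 CPM in set A saline. In set B the sum was 18620 to 20940 CPM in PTU+PRO, 20790 to 21970 in PTU and 47600 to 55390 in PRO, against 44790 to 52780 CPM in saline.

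Among all genes, 26% fell in PTU+PHE+PRO, 25.2% in PTU+PHE, 18.1% in PTU+PRO and 15.1% in PTU hearts. Of 6 endothelial markers, 4 fell in PTU+PHE+PRO (sums of 997.9 to 1089 CPM) and 4 fell and 1 rose in PTU+PHE (924.6 to 1188 CPM), against 1464 to 1534 CPM in saline. In PTU+PRO 3 fell (1061 to 1195 CPM) and in PTU 2 (1231 to 1340 CPM), against 1463 to 1483 CPM in saline. Of 6 fibroblast markers, 4 fell in PTU+PHE+PRO (1129 to 2006 CPM) and 5 in PTU+PHE (1273 to 1783 CPM), against 2278 to 2509 CPM in saline. In PTU+PRO 1 rose and 3 fell (2154 to 2349 CPM) and in PTU 1 rose and 2 fell (2717 to 2946 CPM), against 2410 to 2680 CPM in saline. Without PTU, 0 fibroblast markers were called in PHE (1904 to 2094 CPM) and PRO hearts (2067 to 2436 CPM). In PHE+PRO 1 fell (1921 to 2224 CPM, 3.09% of all genes lower). The sums in PHE and PHE+PRO lay below those of set A saline. Of 6 lymphocyte markers, 4 fell in PTU+PHE+PRO (1.77 to 2.33 CPM) and 4 in PTU+PHE (1.61 to 2.10 CPM), against 2.56 to 5.49 CPM in saline, and 1 each in PTU+PRO (1.91 to 2.26 CPM) and PTU (2.28 to 3.61 CPM), against 2.16 to 5.26 CPM in saline.

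Smooth muscle and pericyte markers, also 6, had sums of 587.7 to 679.7 CPM in PTU+PHE+PRO (2 higher, 2 lower) and 587.7 to 812.9 CPM in PTU+PHE (2 and 2), against 982.5 to 1096 CPM in saline. In set B they had 590.2 to 720.5 CPM in PTU+PRO (1 and 3) and 778.8 to 849.1 CPM in PTU (3 and 2), against 955.5 to 1067 CPM in saline. The set A counts are near the shares of all genes, 28.7% higher and 26% lower in PTU+PHE+PRO and 28.2% and 25.2% in PTU+PHE. In set B those shares were 17.7% and 18.1% in PTU+PRO and 14.3% and 15.1% in PTU. Of 5 erythroid markers, 3 fell in PTU+PRO (171.1 to 205 CPM), against 264.8 to 515.1 CPM in saline, and 0 were called in the other treated groups against saline. The part of these cell type changes in the results for the 10 genes was not tested.

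Likeness was measured as Pearson's r over the 7 log2 differences from saline, among 10353 tested genes with a mean of at least 5 CPM. The 4 points of set A share a saline group, as do the 3 of set B, so r is a description. Closest to Cdkn1a were Slc10a6 (0.970), Tnfrsf10b (0.957) and Zfp57 (0.954). Those closest to Rbl1 were Bves (0.996), Aldh1a2 (0.983) and Lig1 (0.983), and to Ccnd2 Arhgap39 (0.999), Cep170b (0.996) and Adamtsl1 (0.995). Meis1 was closest to Meis2 (0.987), Diaph2 (0.986) and Kdm1b (0.982), and Cdkn2c to Spc24 (0.993), Nxt1 (0.991) and H2afz (0.991). For Cdkn2d they were Tmem203 (0.994), Slc50a1 (0.991) and Ap1s1 (0.990), and for Cdkn1b Mfsd4b1 (0.989), Ttc21b (0.988) and Nek4 (0.987). Rbl2 went with Cdc14b (0.984), Tbx5 (0.983) and Eya3 (0.982), Ccnd1 with Prdm10 (0.981), Med12 (0.977) and Phlpp2 (0.969), and Rb1 with Srek1ip1 (0.949), Tbc1d32 (0.939) and Fign (0.933). Among the 10 genes themselves, Cdkn1b and Rbl2 (0.924), Ccnd2 and Meis1 (0.886) and Cdkn2c and Cdkn2d (0.856) were closest.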

How the data were processed

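RNA of frozen whole hearts was extracted with Trizol and made into libraries with the Illumina TruSeq RNA kit, per the labels' protocols. Per the submitters' processing notes, cutadapt 1.9, STAR 2.5.2b, featureCounts 1.5.1 and the mm10 build were used. Which annotation was used, whether strand was read and how reads with several positions were treated is not given in the sources used here. The deposited table holds raw counts of reads per gene, not normalised by the authors. Of 51826 identifiers 51633 matched a symbol, 13440 had no read in any library, and 0 value columns were left unused. Library depth was 30791885 to 78913915 assigned reads, and no pair of libraries was identical.

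Genes were filtered with filterByExpr of edgeR 4.0.16 by group (minimum count 10, minimum total 15), scaled by TMM, and fitted in R 4.3.3 with 9 group means, 18 residual degrees of freedom, robust quasi-likelihood dispersion and a prior count of 0.125. Tests are two-sided, p-values were adjusted after Benjamini and Hochberg over the 19119 genes of a comparison, and 0.05 was the threshold. The SE was had from the F statistic, as |log2 difference| over its square root. Of 19 comparisons 4 were added after values had been seen. Whether the hearts of a group came from separate litters is not stated, so p-values measure the spread between these hearts only. The fit was tested on simulated data.

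The members and gene lists were chosen with earlier results of these data known. All 10 members are named, and from each other list up to 3 called members with the smallest adjusted p per comparison could be named. The 3 genes with the highest r are given for likeness. Genes at 1 CPM or above entered the length offset, a smooth (span 0.3) of each library's log2 deviation on exon length. Same-numbered saline hearts of the 2 sets deviated together (r of 0.807 to 0.874 across 13668 genes), with hearts 1 and 2 male and heart 3 female in both sets, and whether they are the same animals is not stated. In no other pair of groups with 3 shared numbers did every number pass 0.1. Further alternatives were DESeq2 1.42.0, RLE scaling, fitting without a filter, fitting a set or the compared groups alone, a replicate block, sex as a covariate, and leaving out each library in turn.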

Additional observations from a re-analysis of the deposited data

Results flagged for a closer look

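In 6 results the effect of a treatment differed between backgrounds by a test of the difference itself. Within set A, the PTU effect with PHE+PRO minus the PTU effect with PHE was -2.15 for Cdkn1a (adjusted p = 0.003) and 0.73 for Cdkn2c (adjusted p = 0.022), edgeR's quasi-likelihood test with Benjamini-Hochberg adjustment throughout. Both calls were lost in the fits of set A alone and of the groups compared alone, and that of Cdkn2c also without a filter on low counts and without any 1 of 5 libraries, named above. Cdkn1a was high in all 3 PHE+PRO hearts already without PTU, while Cdkn2c was not.

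Across the sets, the PTU effect with PHE+PRO minus that with PRO was -2.32 for Cdkn1a (adjusted p = 0.00041), -0.76 for Cdkn1b (adjusted p = 0.04) and 0.87 for Cdkn2c (adjusted p = 0.0013). The Cdkn1b call held in 3 of 6 alternative fits and in 3 of 12 that left out a library. The PRO effect with PHE minus the PRO effect without was 2.93 for Cdkn1a (adjusted p = 0.00012). In these 4 results PHE and the sequencing set cannot be told apart, unless the set acts alike on every group in it.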

How the results depend on the processing

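Of 48 member calls in 19 comparisons, 32 held in every alternative fit and with every library of their groups left out, and 0 reversed. Counts of called members moved by over 1.5 times as follows. With set A or B fitted alone, they were 0 in place of 3 for PHE against saline, 1 in place of 2 for PHE+PRO, 1 in place of 0 for PRO, 5 in place of 3 for PTU, 0 in place of 2 for PTU with PHE+PRO minus PTU with PHE, and 1 in place of 3 for PRO added to PHE. With the groups compared fitted alone they were 1 for PHE+PRO, 1 for PRO and 5 for PTU against saline, 0 for PTU with PHE+PRO minus PTU with PHE, and 1 in place of 0 for PRO added to PTU. The length offset gave 1 for PHE, 1 for PHE+PRO and 1 in place of 0 for PRO added to PTU+PHE (Cdkn2c, 0.37, adjusted p = 0.039). Without a filter on low counts they were 1 for PTU with PHE+PRO minus PTU with PHE, 1 in place of 0 for PTU with PHE minus PTU (Ccnd2), and 0 in place of 1 for saline against saline. DESeq2 gave 1 for PRO and 2 in place of 1 for PRO with PHE minus PRO (Cdkn2c added, -0.53, adjusted p = 0.029). In the fits of a set or of the groups compared alone, calls over all genes moved in the same direction as these counts. With set A alone they were 78 of 18319 in place of 2827 of 19119 for PHE. With set B alone they were 8340 of 18271 in place of 5615 for PTU. They went the other way for PHE+PRO with the length offset (1193 in place of 1069). Without a filter they did so for PTU with PHE+PRO minus PTU with PHE (234 in place of 200) and PTU with PHE minus PTU (751 in place of 783). The cause was not tested.

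The replicate block moved the count for PTU+PRO against saline to 4 in place of 5 (Ccnd1, 0.54, adjusted p = 0.055). It changed no other member call in the fit of all libraries. In the saline hearts fitted alone it gave 4 members in place of 1, with 6000 of 16971 genes called in place of 814 of 19119. Replicate numbers pair samples only between the saline groups, and comparisons with PHE+PRO had no block because 2 of its columns share a number.

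Leaving out 1 library at a time, called members against saline numbered 7 to 8 in PTU+PHE+PRO hearts, 6 in every fit of PTU+PHE, 1 to 2 in PHE+PRO, 0 to 3 in PHE, 4 to 5 in PTU+PRO, 3 in every fit of PTU and 0 in every fit of PRO. For PTU added to PHE they were 4 to 5, to PHE+PRO 4 to 5 and to PRO 3 to 4. For PRO added to PHE they were 1 to 2, to PTU 0 and to PTU+PHE 0 to 1. For the differences of effects they were 0 (PTU by PRO in set B), 1 to 2 (with PHE, set A), 0 (PTU with PHE minus PTU), 2 to 4 (PTU with PHE+PRO minus PTU with PRO) and 1 (PRO with PHE minus PRO), and for saline against saline 0 to 1. The 1 added call for PRO added to PTU+PHE was Ccnd2 (0.47, adjusted p = 0.046) without PTU+PHE+PRO heart 2. Without PTU+PHE heart 1 or PHE heart 2, Cdkn2c was called for PTU added to PHE (0.31 and 0.33). Calls over all genes for PHE against saline were 396 to 2052 in these fits, in place of 2827. They were lowest, 640 and 396, in the fits that called 0 members, without saline heart 3 or PHE heart 3.

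The fewest reads of any of the 10 genes in a library were 180, and each group holds 3 hearts.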
